A study of Mus musculus with 3 samples.

Results

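Expression of 50 genes of the actin cytoskeleton was described in the cytosolic RNA of mouse macrophages, among 55536 annotated genes and 22028 protein-coding genes. The genes were chosen by symbol: actin itself and the proteins that bind its monomers, branch, cap, cut, bundle, pull and anchor its filaments. All 50 symbols were found, and they matched 51 gene IDs, because Myl12b has 2 IDs that overlap on chromosome 17, of which the more abundant was used. The 3 libraries formed 1 group: macrophages grown from bone marrow of the mouse strain C57BL/6J and treated with 100 ng/ml lipid A, the endotoxin part of lipopolysaccharide, for 60 min. Total RNA of the cytosolic fraction was sequenced after depletion of ribosomal RNA, with 1 µg of RNA per library. No allele or other agent was given in the labels, and sex and age were recorded as not collected. The libraries are called replicates 1, 2 and 3. Each has its own biosample but a shared donor entry, so separate animals are not shown, and p-values reflect a spread that may be technical only. Unstimulated cells and nuclear RNA were not analysed here, so the values are levels in stimulated cytosol and no response to lipid A was measured.

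Actin exists in cells as monomers and as filaments that grow mainly at the barbed end. Profilin feeds monomers to growing ends, thymosins hold monomers in reserve, and cofilin with its partners takes old filaments apart. The Arp2/3 complex starts branches on existing filaments when it is switched on by WASP and WAVE proteins downstream of the GTPases Cdc42 and Rac, and capping protein stops growth. Macrophages use such branched networks for membrane ruffles, phagocytic cups and podosomes, and use myosin II for contraction.

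The files held 64110863, 72057046 and 69345880 expected counts in replicates 1, 2 and 3. TPM is the abundance of a transcript per unit of length as a part of the total of a file, and 57.2, 69.6 and 62.2% of that total was 7SL RNA, the RNA of the signal recognition particle. Levels were also given relative to the median protein-coding gene of each library, which stood at 9.08, 5.76 and 6.86 TPM. All 10 macrophage markers lay above that gene by more than 2-fold in the test given below, against 26.3% of all protein-coding genes tested. Lyz2 (lysozyme) led them at 7402, 3458 and 4236 TPM. The summed smooth muscle and fibroblast markers reached at most 0.48 TPM (highest member Tagln), B cell markers 0.63 TPM (Cd79b), T and NK cell markers 0.10 TPM (Lck), epithelial markers 0.04 TPM (Cdh1) and erythroid markers 0.07 TPM (Alas2 and Klf1, averaging 0.02 TPM each). Neutrophil markers summed to at most 31.9 TPM, led by S100a9. Of the 6 platelet and megakaryocyte markers only Pf4 (platelet factor 4) was above 1 TPM, at 189, 125 and 202 TPM. The part of other cells in the values below was not tested, and in such bulk samples fewer cells of a type and less RNA per cell cannot be told apart.

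Actin cytoskeleton genes stood high in these macrophages. The genes were chosen with earlier results of these data known, so the shares and p-values below describe this list and do not test it. Of the 50 genes, 48 averaged 1 TPM or more and were tested, and 45 of them lay above the median gene by more than 2-fold, against 26.3% of all 9123 protein-coding genes tested. None was called below it by limma, nor was any at an unadjusted p under 0.05, against 24.5% of all tested genes called below. The test was limma's treat, with Benjamini-Hochberg adjustment over all tested genes, and adjusted p ran from 2.1e-07 to 0.032 among the 45. On the log2 scale the median tested member was 3.47 above the median gene, and the median over all tested genes was -0.00. The 3 that were not called were Ezr, Vcl and Cfl2, and the 2 below 1 TPM were Fscn1 and Vil1. Counts by role below include Fscn1 and Vil1, which were not tested, and stand beside the same 26.3% of all tested genes. The calls of Arpc1a, Actn1, Diaph1 and Was were lost with TPM of the second deposited transcript table, and these and the calls of Vasp and Wasf2 with a minimum of 5 TPM, which raises the median gene. Without a filter Ezr and Vcl were called above it. The median member stood at 95.3, 65.3 and 73.4 TPM in replicates 1, 2 and 3 (78.0 ± 15.5 TPM, SD, n = 3), and the median tested gene averaged 7.24 TPM. Above 100 TPM were 21 of the 50 genes, against 4.56% of tested genes (416). Together the 50 genes held 3.77 ± 0.185% of the TPM of nuclear-encoded protein-coding genes (SD, n = 3).

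**Figure D1:**
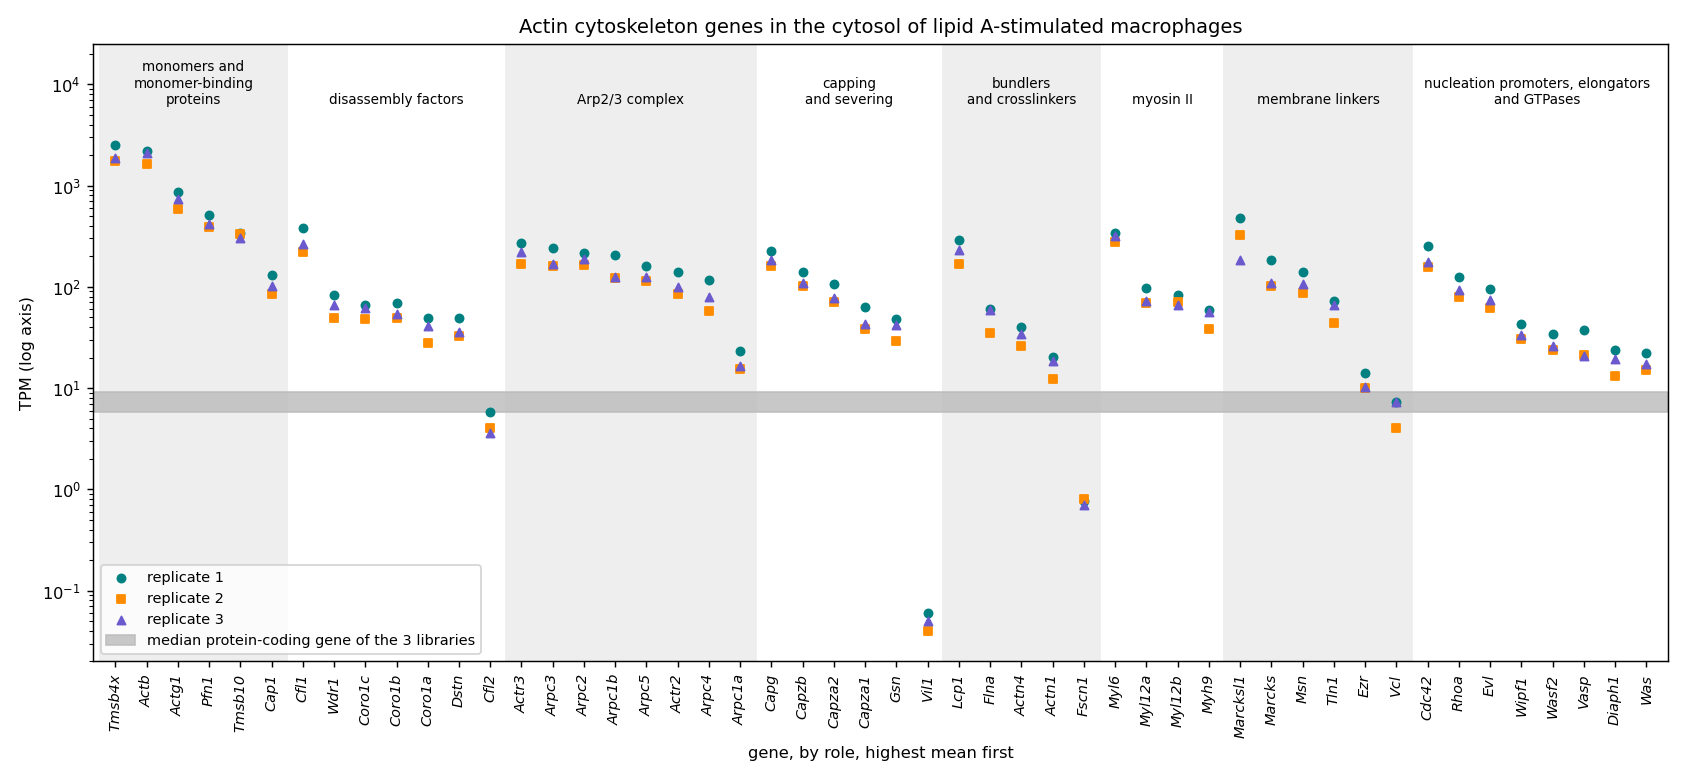
TPM (log axis) of each of the 50 genes in the 3 libraries, grouped by role and ordered by mean within a role. The grey band spans the median protein-coding gene of the libraries, 5.76 to 9.08 TPM, and Ezr, Vcl and Cfl2 lie near it, while Fscn1 and Vil1 lie under it.

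Actin and the proteins that bind its monomers led the set, with all 6 genes above the median gene. Tmsb4x, which encodes thymosin beta 4, the main monomer-sequestering peptide, had 2538, 1753 and 1888 TPM in replicates 1, 2 and 3 and was the 9th most abundant protein-coding gene. Actb, which encodes beta-actin, had 2179, 1618 and 2100 TPM and ranked 10. On the log2 scale these levels were 8.14 ± 0.13 and 8.08 ± 0.14 (SE) above the median gene, each with an adjusted p of 2.1e-07 in limma. Actg1, which encodes gamma-actin, the other cytoplasmic actin, had 871, 591 and 737 TPM. Pfn1 (profilin 1) had 506, 387 and 417 TPM, and its relative Pfn2 had 1.22, 0.79 and 0.72 TPM. Cap1, the cyclase-associated protein that recharges actin monomers, had 131, 84.5 and 102.5 TPM. Its relative Cap2 was listed at 0 TPM in each library, with an expected count that rounded to 0 in replicates 1 and 2 and to 1 in replicate 3.

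Beta-actin messages outnumbered gamma-actin messages in every library, by 2.50-, 2.74- and 2.85-fold per unit of length (2.70 ± 0.178, SD, n = 3). The proteins are known to be almost the same, and in the main transcripts Actb-201 and Actg1-202 the coding sequences were identical at 1000 of 1128 bases, with 4 of 375 codons coding for another residue. The start of each coding sequence is shown because the residues that differ are known to lie near it, and capitals mark the bases that differ between the genes over the first 90 bases (Actb-201 chr5:142903798-142905686 and Actg1-202 chr11:120346390-120348091, both minus strand, GENCODE M21 on GRCm38, introns removed).
Actb-201: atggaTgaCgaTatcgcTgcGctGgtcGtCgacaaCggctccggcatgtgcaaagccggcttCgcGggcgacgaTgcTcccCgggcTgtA
Actg1-202: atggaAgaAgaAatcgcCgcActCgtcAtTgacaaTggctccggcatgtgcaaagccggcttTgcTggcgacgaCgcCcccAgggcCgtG
In these 90 bases 16 differed. Reads from stretches shared by both genes are divided between them by the authors' estimated assignment, so the ratio carries that uncertainty, and in the second deposited transcript table it was 1.57 on the log2 scale, against 1.43 here. The 5 muscle actin genes were all below 1 TPM, with a summed level of at most 0.11 TPM.

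Thymosin beta 4 messages outnumbered those of thymosin beta 10, another monomer-binding peptide of the same family, by 7.40-, 5.33- and 6.19-fold (6.31 ± 1.04, SD, n = 3). Tmsb10 had 343, 329 and 305 TPM. Both coding sequences are short enough to print whole, and they are shown to compare the 2 peptides, with capitals at the bases that differ (Tmsb4x-201 chrX:167207501-167208036 and Tmsb10-203 chr6:72957618-72958012, both minus strand, GRCm38, introns removed).
Tmsb4x-201: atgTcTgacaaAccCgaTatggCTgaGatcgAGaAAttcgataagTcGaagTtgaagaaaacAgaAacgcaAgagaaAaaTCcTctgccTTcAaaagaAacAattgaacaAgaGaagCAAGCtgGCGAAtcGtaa
Tmsb10-203: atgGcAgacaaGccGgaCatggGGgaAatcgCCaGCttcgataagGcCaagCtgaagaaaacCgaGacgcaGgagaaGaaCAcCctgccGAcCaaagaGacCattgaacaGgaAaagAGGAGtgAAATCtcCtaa
Each codes for 44 residues in 135 bases with the stop codon, and 40 bases differed. The 2 actin genes summed to 3050, 2208 and 2837 TPM, and the 2 thymosin genes to 2881, 2082 and 2192 TPM. The actin to thymosin ratio of messages was 1.06, 1.06 and 1.29 (1.14 ± 0.135, SD, n = 3), and the actin to profilin ratio was 6.18 ± 0.564.

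Among the disassembly factors 6 of 7 genes lay above the median gene, and Cfl1 led them by a wide margin. Cfl1 encodes cofilin 1, which severs aged filaments, and had 382, 220 and 267 TPM. Wdr1, which encodes the cofilin cofactor AIP1, had 82.6, 49.3 and 66.0 TPM. Dstn (destrin, also called ADF) had 48.8, 32.6 and 35.9 TPM, which Cfl1 exceeded 7.83-, 6.75- and 7.46-fold. Cfl2, the cofilin known from muscle, had 5.84, 4.07 and 3.61 TPM, which Cfl1 exceeded 65.4-, 54.0- and 74.0-fold, and it was 0.68 below the median gene on the log2 scale and not called (adjusted p = 1 in limma). By TPM the Cfl2 messages were also mostly not annotated as coding, at 75.0 ± 5.66% of the gene's total (SD, n = 3). The processed transcript Cfl2-203 alone held 65.2 ± 3.91%. Of the gene's 684, 735 and 685 expected counts in replicates 1, 2 and 3, the coding Cfl2-201 held 331, 340 and 397. By counts the coding transcript was thus the larger part in replicate 3. Of the 50 genes Cfl2 was the only one whose main transcript was not annotated as protein coding.

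The coronins, which bind filaments and guide cofilin and the Arp2/3 complex, were close to each other. Coro1c had 66.2, 48.0 and 61.0 TPM, Coro1b 69.6, 49.0 and 54.1 TPM, and Coro1a, the form known from blood cells, 49.6, 27.9 and 41.2 TPM. Coro1a was below Coro1b in every library, at 0.712, 0.569 and 0.761 of its level. Coro1b and Coro1c did not keep an order across libraries, with a mean log2 difference of -0.02 ± 0.13 (SD, n = 3).

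All 8 genes of the Arp2/3 complex lay above the median gene. Actr3, which encodes the actin-related subunit Arp3, had 268, 167 and 222 TPM, and Arpc3, a small structural subunit, had 241, 160 and 167 TPM. Arpc2, whose product lies at the branch point, followed at 215, 165 and 187 TPM. The complex has 7 subunits, and after summing paralogues that fill the same position the most abundant position exceeded the least abundant 2.29-, 2.90- and 2.83-fold (2.67 ± 0.336, SD, n = 3). Arpc4, at 117, 57.4 and 78.5 TPM, was the lowest of the 7 positions in each library and Actr3 the highest. Actr2, which encodes the other actin-related subunit, had 141, 84.2 and 100.5 TPM, and Actr3 exceeded it 2.03 ± 0.160-fold. In the second deposited transcript table Arpc4 and Actr2 were nearly level, at 44.4 ± 5.51 and 45.4 ± 4.90 TPM (SD, n = 3). The remaining position, Arpc5, had 159, 113 and 126 TPM and exceeded its paralogue Arpc5l 16.3-, 16.2- and 15.4-fold.

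The interchangeable ARPC1 subunits were unequal in abundance. Arpc1b, the form known from blood cells, had 204, 123 and 126 TPM, and Arpc1a had 23.2, 15.6 and 16.4 TPM. The ratio was 8.79, 7.92 and 7.70 (8.14 ± 0.579, SD, n = 3). On the log2 scale that ratio was 3.02, and it was 3.36 in the second deposited transcript table. Their coding sequences, in the main transcripts Arpc1b-211 and Arpc1a-201, were identical at 806 of 1137 aligned positions, far less alike than those of the 2 actins.

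Capping and severing proteins had 5 of 6 genes above the median gene. Capg, a macrophage-abundant protein that caps filaments without cutting them, had 228, 159 and 184 TPM, and Capzb, the beta subunit of capping protein, had 139, 101 and 108 TPM. Capping protein pairs 1 alpha with 1 beta subunit, and the alpha messages together exceeded the beta messages 1.22-, 1.09- and 1.11-fold (1.14 ± 0.0695, SD, n = 3). Of the alpha genes, Capza2 had 107, 71.5 and 78.1 TPM and Capza1 62.6, 38.2 and 42.5 TPM, a ratio of 1.80 ± 0.0892. On the log2 scale that ratio was 0.85, and it was 1.21 in the second deposited transcript table. Gsn (gelsolin, which severs and caps) had 47.6, 29.2 and 42.4 TPM, and Capg exceeded it 4.79-, 5.44- and 4.34-fold. Vil1 (villin, the gelsolin relative of intestinal microvilli) had 0.06, 0.04 and 0.05 TPM from 16, 17 and 20 expected counts.

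Bundling and crosslinking proteins had 4 of 5 genes above the median gene. Lcp1, which encodes L-plastin, the leukocyte bundling protein, had 289, 167 and 229 TPM, and its relative Pls3 had 1.69, 0.82 and 1.44 TPM. Flna (filamin A, which crosslinks filaments into networks) had 60.7, 34.7 and 59.0 TPM. Of the non-muscle alpha-actinins, Actn4 had 40.2, 25.9 and 34.2 TPM and Actn1 20.4, 12.3 and 18.5 TPM, a ratio of 1.98 ± 0.129 (SD, n = 3). On the log2 scale that ratio was 0.98, and it was 0.67 in the second deposited transcript table. Actn1 was the member nearest to the threshold among those called, at 1.22 ± 0.08 (SE) above the median gene with an adjusted p of 0.032 in limma. That call was lost with a pseudocount of 1 (adjusted p = 0.15), without replicate 1 (adjusted p = 0.098) and without replicate 3 (adjusted p = 0.16). Fscn1 (fascin, the bundler of filopodia and of dendritic cells) had 0.77, 0.81 and 0.70 TPM from 158, 281 and 185 expected counts.

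All 4 genes of myosin II, the motor that pulls on filaments, lay above the median gene, and the light chains exceeded the heavy chain. Myl6, the essential light chain, had 341, 279 and 320 TPM. The regulatory light chain genes Myl12a and Myl12b had 96.4, 69.1 and 72.7 TPM and 82.4, 70.4 and 66.4 TPM. Their order was not the same in every library, and their log2 difference was 0.11 ± 0.13 (SD, n = 3). With both overlapping Myl12b IDs summed the difference was -0.67 ± 0.17, so the order of these genes depends on that choice, which was added after the data were seen. The less abundant Myl12b ID (chr17:70974119-71002208) also overlaps Myl12a (chr17:70993656-71002878). Whether its reads belong to Myl12b alone was not tested. Myh9, the non-muscle heavy chain IIA, had 59.0, 38.0 and 55.8 TPM, and Myh10, the heavy chain IIB, had 0.91, 0.54 and 0.67 TPM.

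Proteins that tie filaments to the membrane spanned a wide range of levels, with 4 of 6 genes above the median gene. Marcksl1 had 473, 328 and 185 TPM and Marcks 184, 101 and 109 TPM; both encode myristoylated proteins that bind the inner membrane and actin. Marcks was below Marcksl1 in every library, at 0.389, 0.309 and 0.590 of its level. Relative to the median gene Marcksl1 stood at 5.69, 5.81 and 4.73 on the log2 scale in replicates 1, 2 and 3, lowest in replicate 3, and Marcks stood at 4.33, 4.11 and 3.97. Msn (moesin, the linker of the ezrin, radixin and moesin family that leukocytes are known to use) had 142, 86.6 and 106 TPM. It exceeded Ezr (ezrin) 9.94-, 8.74- and 10.2-fold and Rdx (radixin) 6.51-, 6.16- and 6.16-fold. Ezr had 14.2, 9.91 and 10.3 TPM and was 0.67 above the median gene (adjusted p = 1 in limma).

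Tln1 (talin 1, which links integrins to actin) had 71.7, 43.7 and 65.5 TPM, against 0.02, 0.04 and 0.04 TPM of Tln2. Vcl (vinculin, which binds talin under tension) had 7.30, 4.06 and 7.20 TPM and stood at -0.31, -0.49 and 0.07 relative to the median gene, on either side of it.

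All 8 nucleation promoters, elongators and GTPases lay above the median gene. Cdc42, the GTPase that activates WASP and formins, had 253, 155 and 175 TPM, and Rhoa, the GTPase that drives contraction, had 126, 78.6 and 92.5 TPM. Rhoa was at 0.499, 0.506 and 0.527 of the level of Cdc42, and Cdc42 exceeded Rac1, the ruffle-forming GTPase, 1.70-, 1.77- and 1.74-fold. Rhob, known as an early response gene, had 122, 84.4 and 93.5 TPM, and Rhoa minus Rhob was -0.02 ± 0.08 on the log2 scale (SD, n = 3). Among the activators of the Arp2/3 complex, Was (WASP) had 22.2, 15.0 and 17.3 TPM, Wasf2 (the WAVE protein WAVE2) 34.1, 23.8 and 26.0 TPM, and Wipf1 (WIP, which stabilises WASP) 43.0, 30.3 and 33.5 TPM. Was exceeded its widely expressed relative Wasl 7.05 ± 0.513-fold, and Wipf1 exceeded Wipf2 7.40 ± 0.488-fold.

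Of the elongation factors that keep filament ends growing, Evl had 94.2, 61.5 and 74.0 TPM and Vasp, the founding member of that family, 37.8, 21.2 and 20.6 TPM, at 0.401, 0.345 and 0.278 of the level of Evl. Diaph1, a formin that elongates unbranched filaments, had 23.8, 13.2 and 19.5 TPM and exceeded Diaph2 2.14-, 1.81- and 2.40-fold.

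In all, 30 pairs of related genes were compared within libraries, 18 of them between members and 12 between a member and a relative outside the set. The difference had the same sign in every library for 27 pairs, and the first-named gene was higher in every library for 22. The pairs too were chosen with earlier results of these data known, so these counts are descriptions. An exact 2-sided sign-flip permutation test over 3 libraries cannot go below p = 0.25, and the smallest value adjusted over the pairs was 0.278, so no pair can pass a threshold of 0.05 and the within-library ratios stand as descriptions. The 3 pairs without a constant sign were Coro1b and Coro1c, Myl12a and Myl12b, and Rhoa and Rhob.

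**Figure D2:**
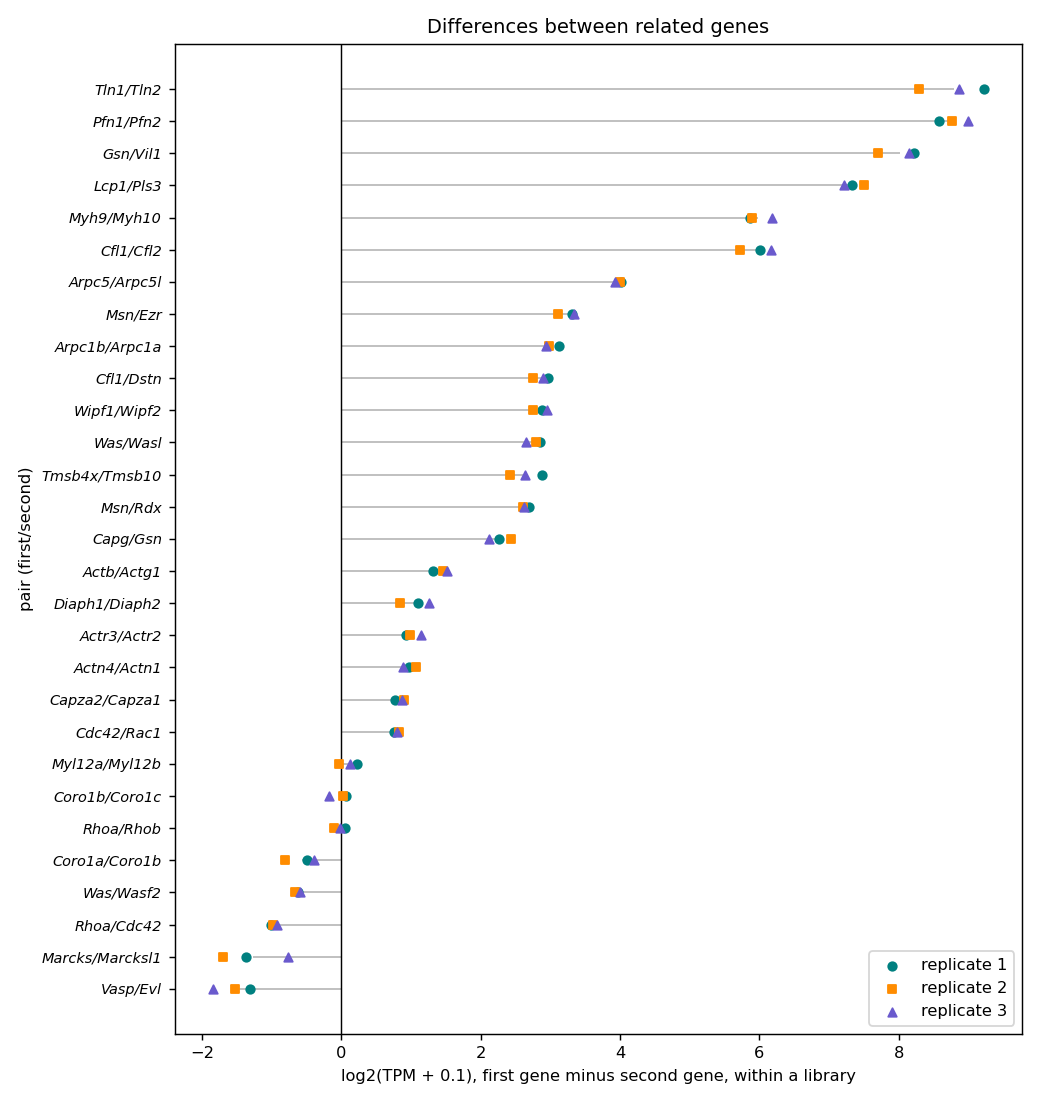
Difference in log2(TPM + 0.1) between related genes within each library, first-named minus second-named gene, for the 29 pairs whose genes were both above 0 TPM; a line runs from 0 to the mean. Pairs with a positive value, such as Cfl1/Cfl2, have the first gene higher, Vasp/Evl and Marcks/Marcksl1 lie furthest below 0, and the 3 pairs at 0 change sign between libraries.

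Of 106 other pathway genes in 10 lists, 36 lay above the median gene, 12 below it, 23 were not called and 35 were under 1 TPM. The last were not tested, and of all 9123 tested genes 26.3% were called above and 24.5% below. The counts of each list include its genes under 1 TPM. The 3 most abundant were Vim (vimentin, an intermediate filament protein) at 690, 486 and 656 TPM, Arhgdia (an inhibitor that holds small GTPases in the cytosol) at 242, 166 and 173 TPM, and Cotl1 (coactosin-like protein, which binds filaments) at 211, 160 and 167 TPM. GTPases and their regulators had 10 of 14 genes above and none below, and membrane linkers 6 of 9. Formins and other elongators had none of 9 above and 4 below, with Diaph2 the highest. Of the tropomyosins, which wrap filaments, 3 of 4 lay above. The lists of monomer binding and disassembly factors had 5 of 17 above, Arp2/3 and its activators 5 of 14, severing, bundling and crosslinking proteins 2 of 15, myosins 3 of 10, and genes around the factor SRF 2 of 9. In the order given here, from GTPases to SRF, these lists held 0, 1, 2, 1, 4, 5, 7, 6 and 4 genes under 1 TPM.

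In the first transcript table most of the 50 genes were represented by 1 main transcript. The main transcript held more than 90% of the gene's TPM in 31 of the 50, and in 62.5% of the 48 tested members against 41.8% of tested genes. Among genes with more than 1 transcript it was 60.0% of tested members against 37.3% of tested genes. Fewer of the 50 genes passed this limit in the second transcript table. It was the same transcript in all libraries for 48 genes, the exceptions being Myl12b and Diaph1, and the second deposited transcript table gave the same main transcript for all 50. Transcripts not annotated as coding took more than 10% in Cfl2, Myl12b, Actn4, Flna and Actr3, which is 10.4% of the tested members against 25.5% of tested genes. The noncoding share was 43.9 ± 3.65% for Myl12b, all of it in retained-intron transcripts, 35.2 ± 2.67% for Actn4 and 10.6 ± 3.45% for Actr3 (SD, n = 3). Actr3 had 12.5, 6.65 and 12.7% in replicates 1, 2 and 3, under the limit in replicate 2. For Flna the share was 24.6 ± 4.58%. Few reads can lie behind a share of TPM. The retained-intron transcript Myl12b-202 had 492, 816 and 575 of the gene's 4788, 6027 and 5081 expected counts in replicates 1, 2 and 3. Flna-215 held 17.5, 9.39 and 5.53% of the TPM from 509, 256 and 218 of 36280, 35455 and 56461 expected counts. Which genes pass 10% depends on the quantification: in the second transcript table Flna had 2.03% and Actr3 5.71% and both left the list, while Fscn1 (23.0%), Actn1 (20.5%), Arpc1b (18.5%) and Myh9 (11.4%) entered it. In that table the limit was passed by 12.5% of the tested members and 31.2% of tested genes.

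Transcript shares also separated annotated forms, some of which differ in coding length. Protein was not measured, and the codon counts are those of the annotation. Gsn-205, whose coding sequence has 731 codons, held 92.6, 96.6 and 93.9% of Gsn, and Gsn-201, with 780 codons, held 0.86, 0.55 and 0.30%; gelsolin is known to have a cytoplasmic form and a longer secreted form. For Cfl1, Cfl1-201 with 227 codons held 74.7 ± 3.82% and Cfl1-202 with 166 codons 24.3 ± 3.50%, and Cfl2-201 also has 166 codons. Of the 40849, 41245 and 42171 expected counts of Cfl1 in replicates 1, 2 and 3, Cfl1-202 held 15150, 19154 and 18300. For Arpc4, the 2 transcripts with 78 codons summed to 72.0 ± 10.3%, and Arpc4-201 with 168 codons held 19.0, 39.2 and 25.8%. Of the 12088, 11903 and 12240 expected counts of Arpc4 in replicates 1, 2 and 3, Arpc4-201 held 4128, 6868 and 5358. By counts Arpc4-201 was thus the larger part in replicate 2. Lcp1 was divided between Lcp1-209 (55.1 ± 3.06%) and Lcp1-206 (42.5 ± 3.80%), which share a coding length of 1884 bases. Actg1-202 and Actg1-204 held 62.7 ± 0.608% and 36.4 ± 0.624% and have identical coding sequences, and the second transcript table gave 92.8% and 6.07%. That table also moved other minor forms by more than 1.5-fold, with Gsn-201 at 3.40%, Cfl1-202 at 14.1% and Arpc4-201 at 11.3%.

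Cdc42 has 2 forms with different last exons, a widely expressed form and a form known from brain. Cdc42-202 held 99.4, 99.5 and 99.4% of the gene's TPM and Cdc42-201 held 0.64, 0.53 and 0.58%. Both have 576 coding bases that first differ at base 488, and their last 60 coding bases are shown because they encode the tail that anchors the protein in membranes, with capitals at the bases that differ (coding spans chr4:137321103-137336079 and chr4:137322530-137336079, minus strand, GRCm38, introns removed).
Cdc42-202: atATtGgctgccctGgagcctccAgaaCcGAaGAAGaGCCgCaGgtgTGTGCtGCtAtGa
Cdc42-201: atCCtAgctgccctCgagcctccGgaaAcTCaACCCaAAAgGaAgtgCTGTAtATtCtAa
Of these 60 bases 26 differed.

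**Figure D3:**
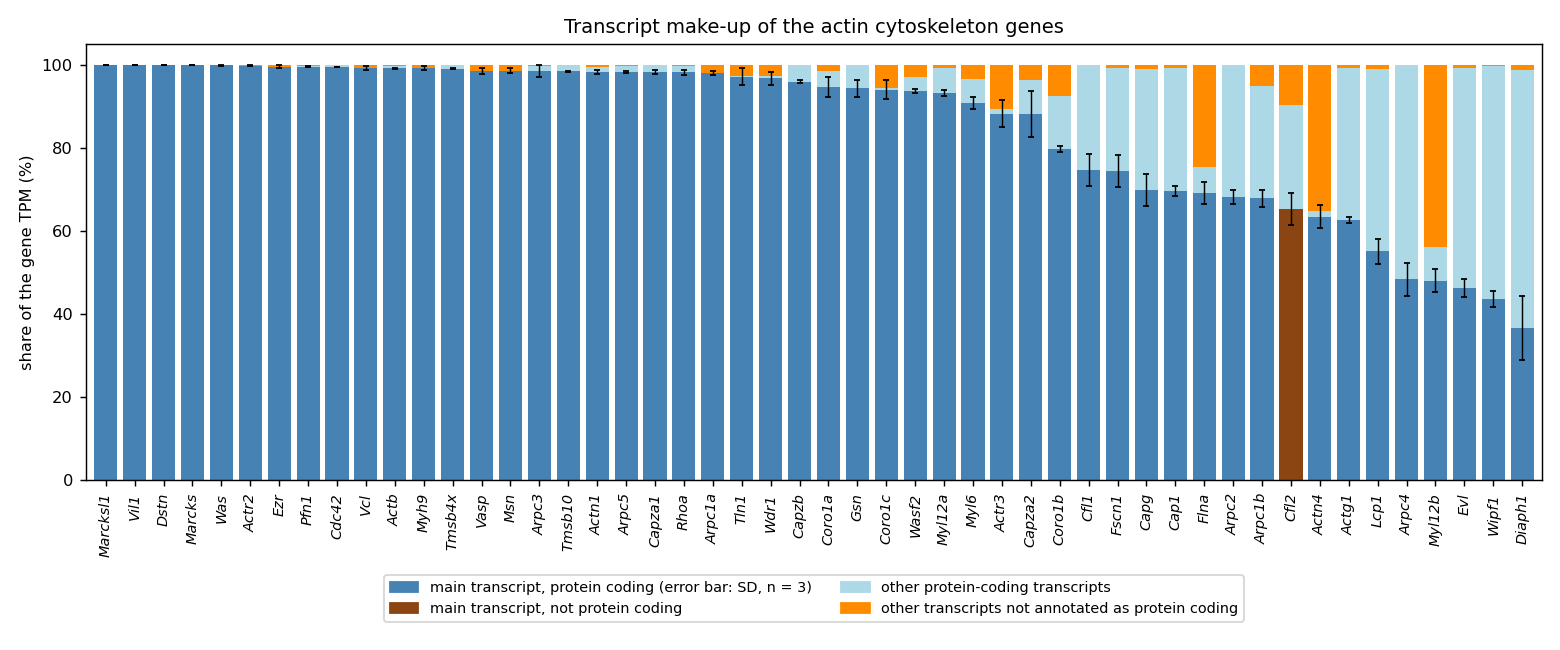
Share of each gene's TPM (%) in its main transcript (mean and SD, n = 3), in other protein-coding transcripts and in transcripts not annotated as protein coding, ordered by the main share. The main transcript exceeds 90% in 31 genes, and Cfl2 is the only gene whose main transcript is not annotated as coding.

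Actin genes are known targets of serum response factor, which binds a motif called the CArG box. RefSeq promoter windows of 300 bases (250 before and 50 after the start, build GRCm38.p6) were at hand for 46 of the 50 genes, 57 windows in all. Genes without a window were not searched, so a gene not named below need not lack the motif. An exact CArG box was found in 5 of the 57 windows (8.77%), those of Actg1, Vcl, Myl6, Vil1 and Arpc4, and in 1.63% of all 32851 windows and 1.24% of the 9348 windows of tested genes. The motif is a palindrome in its allowed letters, so a match on one strand is a match on the other. The boxes are printed in capitals with up to 25 bases on each side, on the strand of the gene, because they let the same motif be compared in genes of very different level: Actg1, Myl6 and Arpc4 lay above the median gene, Vcl near it and Vil1 under 1 TPM.
Actg1 (chr11:120348551-120348610, minus strand): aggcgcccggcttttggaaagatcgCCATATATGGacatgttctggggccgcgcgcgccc
Myl6 (chr10:128493025-128493084, minus strand): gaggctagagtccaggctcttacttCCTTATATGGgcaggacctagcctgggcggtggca
Vcl (chr14:20929148-20929205, plus strand): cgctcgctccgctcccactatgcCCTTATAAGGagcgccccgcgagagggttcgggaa
Vil1 (chr1:74409286-74409345, plus strand): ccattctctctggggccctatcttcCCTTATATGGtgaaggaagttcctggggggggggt
Arpc4 (chr6:113377863-113377897, plus strand): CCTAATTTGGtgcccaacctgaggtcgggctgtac
The boxes begin 90, 50, 227, 73 and 250 bases before the start of Actg1, Myl6, Vcl, Vil1 and Arpc4. Levels of these genes ran from 733 ± 140 TPM for Actg1 and 313 ± 31.5 TPM for Myl6 through 84.3 ± 30.2 TPM for Arpc4 and 6.19 ± 1.84 TPM for Vcl down to 0.05 ± 0.01 TPM for Vil1 (SD, n = 3). The GC box, searched as GGGCGG on both strands, was in 43 of the 57 windows (75.4%), against 35.7% of all windows and 64.1% of windows of tested genes. The TATA box, searched as TATAAA on both strands, was in 4 of the 57 (7.02%), those of Cdc42, Fscn1, Rhoa and Myh9, against 13.6% and 6.76%. A match describes letters in the window only.

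The 50 genes varied between libraries about as much as tested genes in general. The median biological coefficient of variation (BCV, the between-library variation of counts that edgeR estimates beyond counting noise) was 0.105, against 0.102 for tested protein-coding genes and 0.122 for all 13026 genes with enough counts. The highest values were 0.256 for Marcksl1, 0.256 for Fscn1 and 0.219 for Vil1, followed by 0.177 for Flna and 0.156 for Tmsb10. The lowest was 0.0829 for Was. Relative to the median gene, 44 of 48 tested members (91.7%) stayed within a range of 0.5 on the log2 scale over the 3 libraries, against 91.4% of tested genes.

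The difference between replicates 3 and 2 rose with transcript length among the members, and less so among tested genes in general. Other pairs of libraries were not compared by length. The 6 members with an effective length over 4000 bases, Flna, Myh9, Tln1, Vcl, Diaph1 and Wasf2, were 0.33 higher in replicate 3 than in replicate 2 at the median, on the log2 scale relative to the median gene, and 1857 tested genes of that length were 0.03 higher. Wasf2 alone of the 6 was lower in replicate 3. The quartiles were 0.31 and 0.47 for these members, and -0.08 and 0.15 for the tested genes of that length. The 8 members under 1000 bases were at -0.16 and 1292 tested genes of that length at -0.12. Across the 48 tested members Spearman's rho of effective length with the difference was 0.55, and across 9123 tested genes it was 0.22. These points share the same pair of libraries, genes are not independent replicates, and no p is given. Flna stood at 2.73, 2.57 and 3.09 above the median gene in replicates 1, 2 and 3, and Tmsb10, the shortest, at 5.22, 5.81 and 5.45. The part of length in the variation of single genes was not tested.

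**Figure D4:**
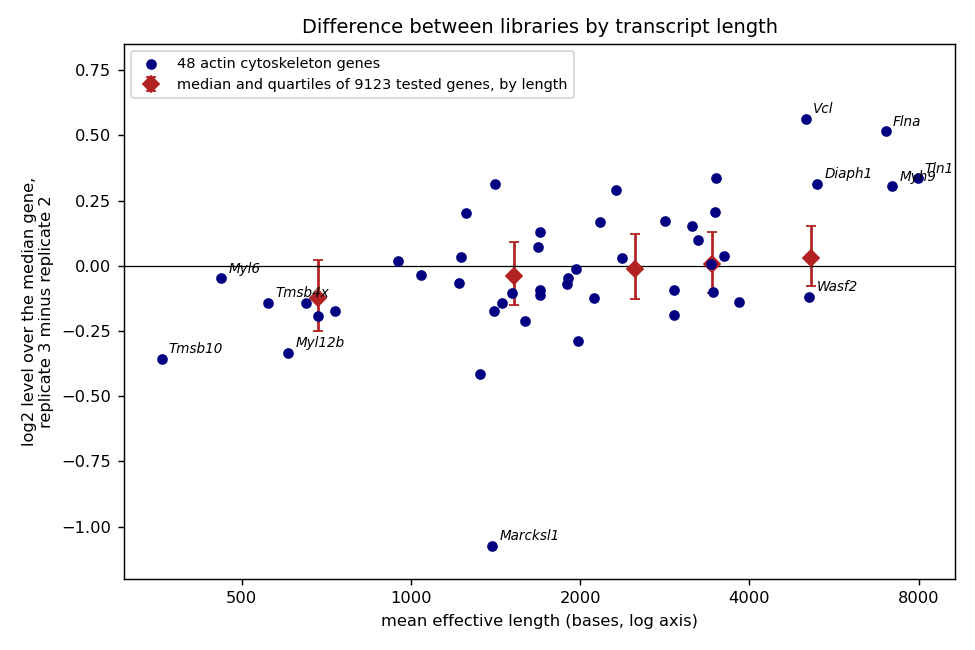
Log2 level relative to the median gene, replicate 3 minus replicate 2, against effective length (log axis) for the 48 tested members, with the median and quartiles of all tested genes in 5 classes of length. Members over 4000 bases other than Wasf2 lie above 0, those under 1000 bases other than Evl lie below it, and Marcksl1, of middle length, lies lowest.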

How the data were processed

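Total RNA-seq of 1 group of 3 libraries was analysed. Per the file headers, the authors' gene tables hold an expected count and TPM for every gene (column names are those of RSEM), and their transcript tables add the percent of the gene that each transcript makes up. Another deposited transcript table holds TPM and estimated counts under the column names of kallisto, and is called the second transcript table. Per the deposited README files, build mm10 and annotation M21 were used. Not given in the sources used here were the aligner, the quantifier versions and any use of strand in counting: overlapping and antisense genes are uncertain. Rows that are not annotated genes held 0.260, 0.0933 and 0.0577% of the counts and were left out.

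Levels were log2(TPM + 0.1), centred on the median of each library over protein-coding genes averaging 1 TPM or more, and fitted with an intercept only in limma 3.58.1 (R 4.3.3; treat with a band of 1 on log2, trended prior, Benjamini-Hochberg at 0.05 over 9123 genes). This scale understates differences of low genes. BCV came from rounded expected counts in edgeR 4.0.16 (TMM, filterByExpr). The rest used Python 3.11.15 with pandas 2.3.3, statsmodels 0.14.6 and Biopython 1.88. The level and BCV scripts were tested on simulated data. Alternatives were the second table's TPM, a pseudocount of 1, no filter, a minimum of 5 TPM, TPM scaled to nuclear-encoded protein-coding genes only, DESeq2 1.42.0 size factors and leaving out each replicate. One gene of the lists of other pathway genes, with its pair, is not reported here. The members, pairs and lists were chosen with earlier results of these data known. Values in every library are given for the highest 2 genes of each role and for the pairs, and of other pathway genes for the 3 highest and those in pairs. Depth was 64110863 to 72057046 expected counts a library.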

Additional observations from a re-analysis of the deposited data

How the results depend on the processing

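The 45 genes above the median gene became 41 with the second transcript table, 44 with a pseudocount of 1, 47 with no filter and 39 with a minimum of 5 TPM, and 44 to 45 when 1 replicate was left out. No filter also placed 2 genes, Fscn1 and Vil1, below the median gene, where no other setting named here placed any. The median gene itself moves with the filter: levels over all genes rose by 1.57 without a filter, and changed by -0.93 with the minimum of 5 TPM and -0.39 with the second table (log2). Accordingly Vcl stood at 1.32 and Cfl2 at 0.89 without a filter, and Ezr at -0.26 with the minimum of 5 TPM, each on the other side of the median gene. The median member was 301 TPM after rescaling over nuclear-encoded protein-coding genes and 36.7 TPM in the second table, against 78.0 TPM, and 69.3 to 84.3 TPM when 1 replicate was left out. The second table gave 0.447 times the TPM at the median member and 0.444 times at the median tested gene. Of the 30 pairs, 27 to 28 kept 1 sign over libraries in each setting. On the log2 scale, Coro1b minus Coro1c was 0.12 with the second table and ran from -0.071 to 0.052 when 1 replicate was left out, Myl12a minus Myl12b was -0.018 with the second table and -0.67 with both Myl12b IDs summed, and Rhoa minus Rhob was 0.045 with the second table and ran from -0.060 to 0.015, so each took the opposite sign under at least 1 setting. The median BCV was 0.105 with DESeq2 size factors and 0.104 without a filter, and 0.108 to 0.117 when 1 replicate was left out. Main transcripts were the same for 49 to 50 genes when 1 replicate was left out, and the share over 90% held for 24 genes in the second table. No paired analysis was possible because there is 1 group. Depth limits Vil1, whose counts are few, and arithmetic ratios against genes near 0 TPM.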

Other observations

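Of 33 tested members with a retained-intron transcript above 0, 20 (60.6%) had their lowest retained-intron share in replicate 2, close to the 52.9% of 5413 tested genes. Actr3 was among them, with 12.5, 6.63 and 12.7% in replicates 1, 2 and 3. Myl12b, which had the highest share of the 50 genes, was not, with 40.3, 47.6 and 43.8%. The median share was 0.348% for tested members and 0.303% for tested genes.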
